A study of Mus musculus with 8 samples.

Results

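The genes of fatty acid oxidation and ketone synthesis were followed through 2 RNA-sequencing experiments. The set was a list of 37 mouse genes given by symbol, chosen by name, with earlier results of these data known. All 37 were among the 21757 genes of the mouse count table. The other experiment's tables held human gene identifiers, and there 36 genes of 60237 matched by upper-case symbol, because the human gene ACAA1 stands for both mouse genes Acaa1a and Acaa1b.

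Fatty acids enter oxidation after acyl-CoA synthetases join them to coenzyme A. Long chains then pass into the mitochondrion as carnitine esters, and are shortened there in repeated rounds of dehydrogenation, hydration, a further dehydrogenation and cleavage by a thiolase. Very long and branched chains are first shortened in peroxisomes. Acetyl-CoA from this spiral can be turned into ketone bodies, which in the intestine are made by epithelial cells including crypt stem cells, and the nuclear receptor PPAR-alpha drives many of the genes in enterocytes.

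In the genotype experiment, WT organoids were compared with Ctnnb1-ex3 organoids. Organoids are epithelial cultures that renew themselves in a gel, and these were derived from mouse small intestine. Ctnnb1 encodes beta-catenin, the effector of WNT signalling, and its exon 3 codes for the residues through which beta-catenin is marked for degradation; the labels do not spell out the allele, how it was activated, or the animals' strain and age. Per the labels, the WT cultures received Wnt3a, R-spondin1, Noggin and EGF, and the Ctnnb1-ex3 cultures received Noggin and EGF alone, so that genotype and medium cannot be told apart. In the knockdown experiment a control hairpin of scrambled sequence (sh-scramble) was set against a hairpin to Prmt1 (sh-Prmt1), which encodes an arginine methyltransferase. Its libraries are labelled as mouse intestinal organoids, but all 60237 identifiers in its tables carry the human Ensembl prefix and 0 the mouse prefix, so the cells cannot be identified from the labels and are called the sh-scramble and sh-Prmt1 libraries here. Each of the 4 groups had 2 libraries, made from polyadenylated RNA with a custom form of Smart-seq2, a full-length cDNA method. Nothing in the labels says that replicates came from separate cultures or animals, so p-values measure only how far these libraries differ among themselves, and that spread may be technical.

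Library totals ran from 2951887 to 6015933 counts in the genotype experiment and from 39608007 to 53193113 estimated counts in the knockdown experiment. Levels are CPM, counts scaled to a common library size with TMM factors, unless TPM, which also allows for gene length, is named. Differences are log2 fold changes from edgeR's quasi-likelihood test with their standard error (SE), and a gene was called at a Benjamini-Hochberg adjusted p under 0.05 over all genes tested, with n = 2 libraries a group throughout. Prmt1 stood at 10.1 and 11.4 CPM in WT against 51.2 and 32.4 in Ctnnb1-ex3, and was called higher there (log2 fold change 1.97 ± 0.33, SE; adjusted p = 0.00287). PRMT1 stood at 32.1 and 32.2 TPM in sh-scramble against 3.39 and 3.71 in sh-Prmt1 (log2 fold change -3.48 ± 0.12, SE; adjusted p = 1.06e-06) and was thus low in the libraries labelled with its hairpin. Of the 15 enterocyte markers checked, 14 were called lower in Ctnnb1-ex3, with summed levels of 6679 and 7851 CPM in WT and 1871 and 1480 in Ctnnb1-ex3, and 10 of 10 crypt stem cell markers were called higher, with summed levels of 914 and 925 CPM in WT against 2120 and 2480. Of 10 immune and blood markers 3 were high enough to be tested, and their list had summed levels of 93.0 and 16.4 CPM in WT and 13.4 and 72.7 in Ctnnb1-ex3. Some of these markers stood high in single libraries. In Ctnnb1-ex3 replicate 2 Gzma had 110 counts and Ptprc 25, against 1 and 1 in replicate 1. Lyz2 had 323 counts in WT replicate 1 and 3 in WT replicate 2. Of 10 stromal and endothelial markers, 4 were at 3 counts or fewer in every library and the summed level was 11.4 to 36.5 CPM. In the knockdown libraries, 7 of the 15 enterocyte markers, among them MTTP, APOA1, APOA4, APOB and LCT, were too low to be tested.

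The oxidation genes were lower in Ctnnb1-ex3 organoids almost throughout. Of the 37 members, all tested, 27 fell and 0 rose, where 20.5% of all 12976 genes tested were called lower, 20.3% higher and 40.8% in either direction. At an unadjusted p under 0.05, 28 members were lower and 1 was higher, against 25% and 25.4% of all genes tested. DESeq2 and limma-voom also called 0 members higher, against 11% and 19.4% of all genes tested. The median log2 fold change of the members was -0.98, against 0.02 for all genes tested, and single members ran from -3.60 to 0.69. For 33 members both Ctnnb1-ex3 libraries lay below both WT libraries, and for 1 both lay above. Such groups without overlap were found for 35.6% of all genes in the lower direction and 38.1% in the higher. The summed level of the 37 genes was 6567 and 7238 CPM in WT and 3401 and 3551 CPM in Ctnnb1-ex3. These are bulk samples, in which fewer cells of a type and less RNA per cell cannot be told apart. The enterocyte markers fell and the stem cell markers rose in the same libraries, and their part in the result was not tested.

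**Figure D1:**
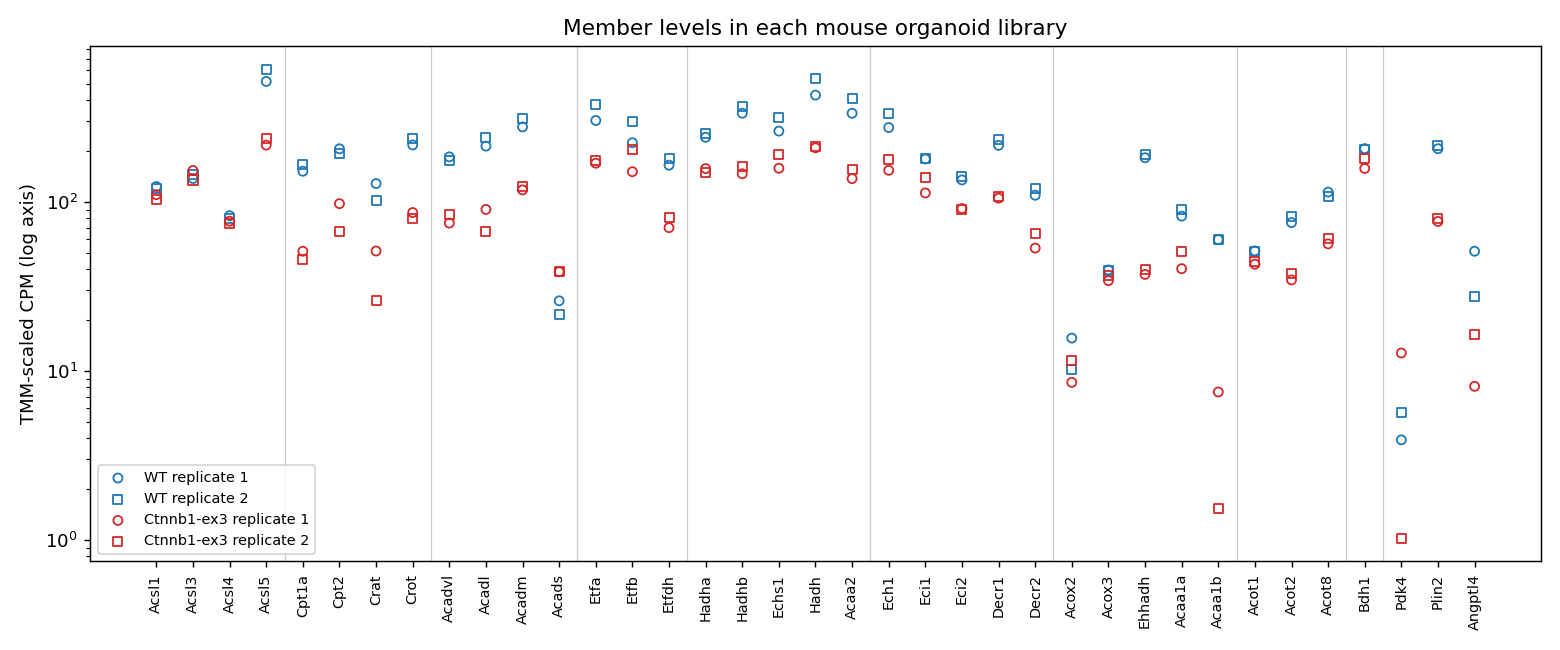
Levels of the 37 genes in the 4 libraries of the genotype experiment, in CPM on a log axis, ordered by role; each point is 1 library. The Ctnnb1-ex3 points lie below the WT points for 33 genes and above them for Acads, and Acaa1b falls from about 60 CPM in WT to 7.51 and 1.54.

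The carnitine acyltransferases were called lower in 4 of 4 cases. Cpt1a, the carnitine palmitoyltransferase that controls entry of long chains into the mitochondrion (chromosome 19, 3322334 to 3385733, plus strand, mm10), stood at 152 and 167 CPM in WT against 51.1 and 45.5 in Ctnnb1-ex3, a 3.28-fold lower level (log2 fold change -1.71 ± 0.14, SE; adjusted p = 0.000189). Both groups were tight and far apart. Cpt2, which rebuilds the acyl-CoA on the inner side of the inner membrane, stood at 206 and 192 CPM in WT against 97.7 and 66.8 in Ctnnb1-ex3 (log2 fold change -1.27 ± 0.19, SE; adjusted p = 0.00187). Crot, the peroxisomal carnitine octanoyltransferase, stood at 217 and 237 CPM in WT against 86.6 and 79.9 in Ctnnb1-ex3 (log2 fold change -1.45 ± 0.14, SE; adjusted p = 0.000363). Crat, which acts on acetyl groups, stood at 128 and 102 CPM in WT against 51.2 and 26.2 in Ctnnb1-ex3 (log2 fold change -1.55 ± 0.28, SE; adjusted p = 0.0039). In proportion to its level, Crat differed most of these genes between the Ctnnb1-ex3 libraries, and without Ctnnb1-ex3 replicate 1 its log2 fold change was -2.17.

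Of the synthetases that activate fatty acids, 1 of 4 fell, 25%, which is near the 20.5% of all genes called lower. Acsl5, an acyl-CoA synthetase abundant in enterocytes, stood at 516 and 609 CPM in WT against 217 and 236 in Ctnnb1-ex3, 2.48-fold lower (log2 fold change -1.31 ± 0.18, SE; adjusted p = 0.00132). Per kilobase of exon it was the highest of the 4 in WT. Acsl1 stood at 123 and 119 CPM in WT against 110.5 and 103 in Ctnnb1-ex3 (adjusted p = 0.283 in edgeR). Acsl4, which prefers arachidonic acid, stood at 82.9 and 80.3 CPM in WT against 76.9 and 75.0 in Ctnnb1-ex3 (edgeR adjusted p = 0.555). In Acsl3, linked to lipid droplets, the groups overlapped: it stood at 138 and 145 CPM in WT against 154 and 135 in Ctnnb1-ex3 (edgeR adjusted p = 0.862). The upper-quartile scaling turns the sign of Acsl1 and Acsl4, and leaving out WT replicate 1 or Ctnnb1-ex3 replicate 1 turns that of Acsl3, to -0.03 and -0.08.

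The acyl-CoA dehydrogenases, which begin each round and divide the work by chain length, split by enzyme. Acadvl, for very long chains, stood at 185 and 176 CPM in WT against 75.0 and 83.7 in Ctnnb1-ex3 (log2 fold change -1.19 ± 0.14, SE; adjusted p = 0.000642). Acadl, for long chains, stood at 214 and 239 CPM in WT against 90.3 and 66.8 in Ctnnb1-ex3 (log2 fold change -1.52 ± 0.18, SE; adjusted p = 0.000677). Acadm, for medium chains (chromosome 3, 153922357 to 153944632, minus strand), stood at 278 and 309.6 CPM in WT against 118 and 123 in Ctnnb1-ex3 (log2 fold change -1.29 ± 0.15, SE; adjusted p = 0.000724). All of these fell, with no overlap between groups. Acads, for short chains (chromosome 5, 115110299 to 115119346, minus strand), went the other way in level: it stood at 26.0 and 21.7 CPM in WT against 38.6 and 38.8 in Ctnnb1-ex3, both Ctnnb1-ex3 libraries above both WT libraries, but missed the threshold (log2 fold change 0.69 ± 0.24, SE; adjusted p = 0.0513). Leaving out Ctnnb1-ex3 replicate 1 made it a call at 0.68 (edgeR adjusted p = 0.0364), as did leaving out replicate 2 of that group (0.68, adjusted p = 0.0265).

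The dehydrogenases pass their electrons to the electron transfer flavoprotein, made of the Etfa and Etfb subunits, and on to the ubiquinone reductase Etfdh. Etfa stood at 303 and 377 CPM in WT against 169.5 and 176 in Ctnnb1-ex3 (log2 fold change -0.98 ± 0.17, SE; adjusted p = 0.00375). Etfdh stood at 165 and 181 CPM in WT against 70.5 and 80.9 in Ctnnb1-ex3 (log2 fold change -1.20 ± 0.14, SE; adjusted p = 0.000705). Both fell. Over all alternative fits run, the log2 fold change of Etfa ran from -1.15 to -0.43. Etfb stood at 224 and 301 CPM in WT against 151 and 203 in Ctnnb1-ex3 and was not called (log2 fold change -0.57 ± 0.21, SE; adjusted p = 0.0648), but without Ctnnb1-ex3 replicate 2 it was (log2 fold change -0.79, edgeR adjusted p = 0.0047). Etfb shares 67.3% of its 50-base stretches with a predicted gene, Gm45233, so reads may be divided between them.

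The hydratases, hydroxyacyl-CoA dehydrogenases and thiolases that finish each round fell in 5 of 5 cases. Hadha, the alpha subunit of the trifunctional protein (chromosome 5, 30118304 to 30155162, minus strand), stood at 241 and 255 CPM in WT against 158 and 148 in Ctnnb1-ex3 (log2 fold change -0.70 ± 0.15, SE; adjusted p = 0.00792). Its partner Hadhb stood at 335 and 367 CPM in WT against 147 and 161 in Ctnnb1-ex3 (log2 fold change -1.19 ± 0.16, SE; adjusted p = 0.0012), with 62.4% of its 50-base stretches also found in other annotated genes. The subunits of this complex thus differed in size of change, a difference that was not tested. Echs1, the short-chain hydratase, stood at 262 and 316 CPM in WT against 158 and 192 in Ctnnb1-ex3 (log2 fold change -0.72 ± 0.18, SE; adjusted p = 0.0144). Hadh, for medium and short chains, stood at 429 and 538 CPM in WT against 209 and 212 in Ctnnb1-ex3 (log2 fold change -1.20 ± 0.18, SE; adjusted p = 0.00204). The thiolase Acaa2 stood at 335 and 412 CPM in WT against 137 and 156 in Ctnnb1-ex3 (log2 fold change -1.35 ± 0.18, SE; adjusted p = 0.00112). Over all alternative fits run, the log2 fold change of Hadha ran from -0.77 to -0.30 and that of Echs1 from -0.88 to -0.31. Hadha lost its call without WT replicate 1 (-0.77, edgeR adjusted p = 0.0523) or WT replicate 2 (-0.67, adjusted p = 0.064), and Echs1 without WT replicate 2 (-0.60, adjusted p = 0.109).

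Enzymes that deal with double bonds of unsaturated chains also fell in 5 of 5 cases. Decr1, the mitochondrial dienoyl-CoA reductase, stood at 216 and 234 CPM in WT against 105 and 108 in Ctnnb1-ex3 (log2 fold change -1.07 ± 0.14, SE; adjusted p = 0.0011). Its peroxisomal relative Decr2 stood at 109.6 and 119 CPM in WT against 53.4 and 64.7 in Ctnnb1-ex3 (log2 fold change -0.96 ± 0.15, SE; adjusted p = 0.00216). Ech1, a dienoyl-CoA isomerase, stood at 276 and 334 CPM in WT against 154 and 178 in Ctnnb1-ex3 (log2 fold change -0.88 ± 0.17, SE; adjusted p = 0.00605). The enoyl-CoA isomerase Eci1 stood at 179.6 and 181 CPM in WT against 113 and 139 in Ctnnb1-ex3 (log2 fold change -0.52 ± 0.15, SE; adjusted p = 0.0286). Its relative Eci2 stood at 135 and 141 CPM in WT against 91.4 and 90.2 in Ctnnb1-ex3 (log2 fold change -0.60 ± 0.13, SE; adjusted p = 0.00765). Over all alternative fits run, the log2 fold change of Eci1 ran from -0.67 to -0.12, that of Eci2 from -0.67 to -0.36 and that of Ech1 from -1.04 to -0.40. The calls of both Eci1 and Eci2 changed when single libraries were left out. Eci1 lost its call without WT replicate 1 (-0.55, edgeR adjusted p = 0.145), WT replicate 2 (-0.53, adjusted p = 0.15) or Ctnnb1-ex3 replicate 1 (-0.39, adjusted p = 0.0521). Eci2 lost its call without WT replicate 1 (-0.67, edgeR adjusted p = 0.0581) or WT replicate 2 (-0.58, adjusted p = 0.1).

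The members with the lowest log2 fold changes, Acaa1b and Ehhadh, were peroxisomal. Ehhadh, the bifunctional enzyme of the peroxisomal spiral (chromosome 16, 21761287 to 21787807, minus strand), stood at 183 and 191 CPM in WT against 37.3 and 39.8 in Ctnnb1-ex3, 4.85-fold lower (log2 fold change -2.28 ± 0.14, SE; adjusted p = 5.41e-05). Acaa1b, a peroxisomal thiolase (chromosome 9, 119148023 to 119157093, minus strand), had 260 and 158 counts in WT against 50 and 6 in Ctnnb1-ex3, or 59.9 and 60.1 CPM in WT against 7.51 and 1.54 in Ctnnb1-ex3. The fit put it at -3.60 ± 0.50 on the log2 scale (SE; edgeR adjusted p = 0.00132), and leaving out Ctnnb1-ex3 replicate 1 or 2 put it at -5.26 or -2.99. The Ctnnb1-ex3 libraries thus disagreed on how low Acaa1b was, but both were far below WT. Its close copy Acaa1a (chromosome 9, 119339676 to 119350299, plus strand) stood at 82.4 and 90.5 CPM in WT against 40.3 and 50.9 in Ctnnb1-ex3 (log2 fold change -0.93 ± 0.17, SE; adjusted p = 0.00417). The copies share 34% of the 50-base stretches of Acaa1a and 35.5% of those of Acaa1b, so the division of counts between them is uncertain. Of the branched-chain oxidases, Acox2 stood at 15.7 and 10.3 CPM in WT against 8.57 and 11.6 in Ctnnb1-ex3 with overlapping groups (edgeR adjusted p = 0.491), and Acox3 stood at 39.6 and 39.6 CPM in WT against 34.3 and 36.7 in Ctnnb1-ex3 (adjusted p = 0.568), with the opposite sign under upper-quartile scaling.

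Thioesterases release free fatty acids from coenzyme A. Acot2, the mitochondrial enzyme, stood at 75.5 and 82.5 CPM in WT against 34.6 and 37.5 in Ctnnb1-ex3 (log2 fold change -1.13 ± 0.16, SE; adjusted p = 0.00154), and the peroxisomal Acot8 stood at 114 and 107 CPM in WT against 56.5 and 60.9 in Ctnnb1-ex3 (log2 fold change -0.92 ± 0.13, SE; adjusted p = 0.00157). Both fell. The cytosolic Acot1 stood at 51.3 and 50.6 CPM in WT against 42.8 and 44.7 in Ctnnb1-ex3 (edgeR adjusted p = 0.346), with the opposite sign under upper-quartile scaling. Acot1 and Acot2 are near copies, with 23.9% of the 50-base stretches of Acot1 also in Acot2, so their counts are uncertain. Bdh1, which interconverts the ketone bodies acetoacetate and beta-hydroxybutyrate, stood at 207 and 204 CPM in WT against 158 and 181 in Ctnnb1-ex3 and was not called (log2 fold change -0.28 ± 0.15, SE; adjusted p = 0.167).

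Of the members that respond to fasting and to PPAR 2 of 3 fell. Plin2, a coat protein of lipid droplets (chromosome 4, 86648386 to 86670060, minus strand), stood at 207 and 217 CPM in WT against 76.6 and 80.1 in Ctnnb1-ex3 and fell 2.70-fold (log2 fold change -1.43 ± 0.14, SE; adjusted p = 0.000305). Angptl4, a secreted inhibitor of lipoprotein lipase (chromosome 17, 33773750 to 33781830, minus strand), stood at 51.1 and 27.8 CPM in WT against 8.12 and 16.4 in Ctnnb1-ex3 and fell (log2 fold change -1.73 ± 0.43, SE; adjusted p = 0.0149), but not without WT replicate 1 (-1.22, edgeR adjusted p = 0.119). Pdk4, the kinase that turns off pyruvate dehydrogenase (chromosome 6, 5483351 to 5496309, minus strand), had only 17 and 15 counts in WT against 85 and 4 in Ctnnb1-ex3. The Ctnnb1-ex3 libraries fell on either side of WT, and no direction could be given (log2 fold change 0.60 ± 0.91, SE; adjusted p = 0.625). Leaving out Ctnnb1-ex3 replicate 1 gave -2.17 (edgeR adjusted p = 0.0206), and leaving out replicate 2 of that group gave 1.44 (adjusted p = 0.00986).

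Compared per kilobase of exon, the highest WT levels of the set were those of Acaa2, at 246 CPM per kb, Etfb at 225, Etfa at 185, Ech1 at 133 and Acsl5 at 116, each a mean of 2 libraries. The lowest was that of Pdk4, at 1.37 CPM per kb. Apart from Acsl5, the leading 5 by this measure belong to the mitochondrial spiral or its electron carrier. Exon length here is the union of all annotated exons, which can far exceed a single transcript. It is 4977 bases for Hadh and 8286 for Echs1, against 1789 and 1557 in their longest coding transcripts. The order therefore depends on the length used, and such genes would rank higher by transcript length.

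**Figure D2:**
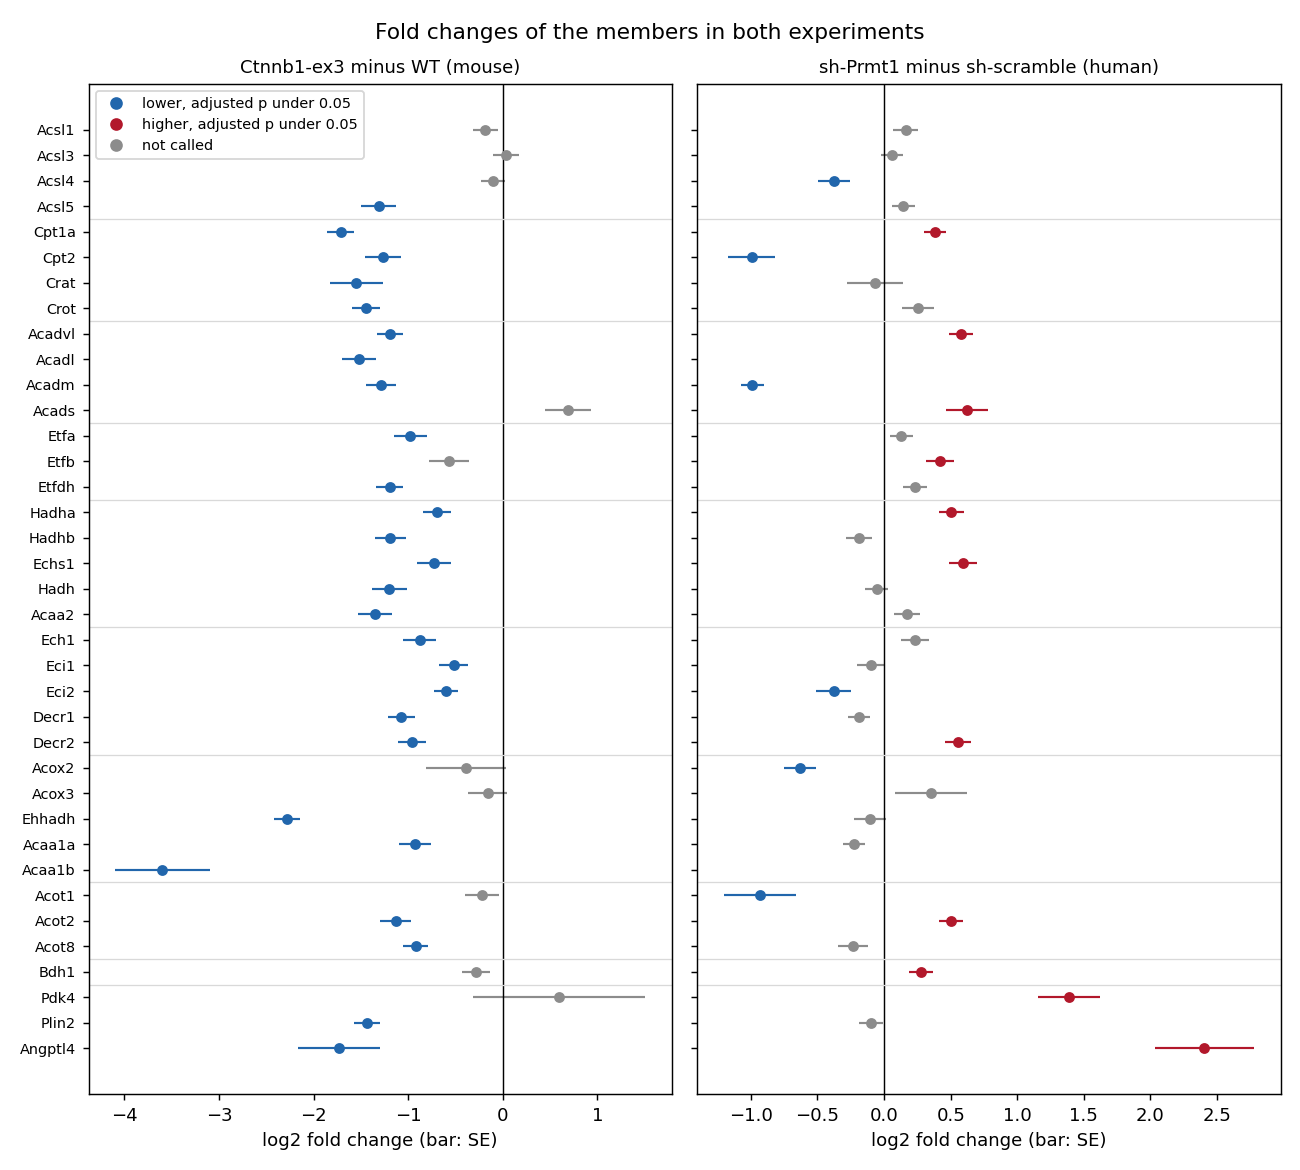
Log2 fold change with its SE for each member in the genotype experiment (Ctnnb1-ex3 minus WT) and the knockdown experiment (sh-Prmt1 minus sh-scramble), by role, with genes that passed adjusted p under 0.05 in colour and ACAA1 on the row of Acaa1a. In the genotype panel 34 of 37 values are below 0, and in the knockdown panel 20 of 35 are above 0.

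Other genes around the pathway were given by fixed lists, to be read beside the 20.5% of all genes tested called lower and 20.3% called higher. Of 10 further peroxisomal genes 9 fell, with a list median of -1.29. Hacl1, of alpha-oxidation, fell by 2.73 on the log2 scale (edgeR adjusted p = 0.000751). Of 9 tested synthetase, thioesterase and pyruvate dehydrogenase kinase genes 6 fell, among them Acot11 at -2.26 and Acot9 at -1.77, and Acot4 at -3.47, which became -6.06 or -2.76 when Ctnnb1-ex3 replicate 1 or 2 was left out. Of 11 further mitochondrial genes 3 fell and 1 rose, with a median of -0.01. Acad11 fell by 2.18 on the log2 scale (-2.94 without Ctnnb1-ex3 replicate 1) and Pccb, of propionyl-CoA carboxylase, fell by 1.30, while Ivd, of leucine breakdown, rose by 1.32 (edgeR adjusted p = 0.00306).

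Ketone body genes gave 4 falls among the 7 tested besides Bdh1. Acat1, the mitochondrial acetoacetyl-CoA thiolase, stood at 275 and 279 CPM in WT against 138 and 126 in Ctnnb1-ex3 (log2 fold change -1.07 ± 0.15, SE; adjusted p = 0.00138). The monocarboxylate carrier Slc16a1 was at -0.68 on the log2 scale (edgeR adjusted p = 0.00887), and was not called without WT replicate 2 (-0.58, adjusted p = 0.104). Among 5 tested carnitine and malonyl-CoA genes 3 fell and 1 rose. Slc25a20, the carnitine carrier of the inner membrane, fell by 1.44 on the log2 scale (edgeR adjusted p = 0.00256). Acacb, which makes malonyl-CoA at the mitochondrion, was at -2.23 on the log2 scale (edgeR adjusted p = 0.019), and was not called without WT replicate 1 (-1.74, adjusted p = 0.43) or WT replicate 2 (-2.56, adjusted p = 0.108). Cpt1c, the brain form, had 2 and 3 counts in WT against 75 and 12 in Ctnnb1-ex3. It was called higher, with no fold given at such counts, and lost the call without WT replicate 1 (edgeR adjusted p = 0.177) or WT replicate 2 (adjusted p = 0.0559).

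Regulators of the pathway fell in 6 of 8 cases. Ppara, which encodes PPAR-alpha (chromosome 15, 85734983 to 85802819, plus strand), stood at 205 and 213 CPM in WT against 18.9 and 18.0 in Ctnnb1-ex3, 11.3-fold lower (log2 fold change -3.49 ± 0.15, SE; adjusted p = 2.39e-05). Creb3l3, a membrane-bound factor of the fasting response, was at -3.40 on the log2 scale (edgeR adjusted p = 0.000377), or -4.32 with replicate 1 of Ctnnb1-ex3 left out, and Pparg stood at 71.1 and 59.0 CPM in WT against 22.4 and 22.6 in Ctnnb1-ex3 (log2 fold change -1.54 ± 0.20, SE; adjusted p = 0.00112). Hnf4a, a receptor that marks intestinal epithelium, stood at 313 and 375 CPM in WT against 202 and 239.9 in Ctnnb1-ex3 (log2 fold change -0.64 ± 0.18, SE; adjusted p = 0.0243), and lost its call without WT replicate 1 (-0.80, adjusted p = 0.0668), WT replicate 2 (-0.52, adjusted p = 0.188) or Ctnnb1-ex3 replicate 1 (-0.53, adjusted p = 0.0713). Of 5 tested PPAR-responsive genes outside the set 4 fell. They included the fatty acid importer Cd36 at -2.74 (-4.07 without Ctnnb1-ex3 replicate 1), the lipid droplet protein Cidec at -2.66 (-3.95 without Ctnnb1-ex3 replicate 1) and the fatty acid binding protein Fabp1 at -1.26. Of 6 tested genes of lipid droplets and lipolysis 2 fell and 2 rose. Mgll, monoacylglycerol lipase, stood at 2.30 and 2.28 CPM in WT against 16.4 and 15.2 in Ctnnb1-ex3 and rose (log2 fold change 2.77 ± 0.47, SE; adjusted p = 0.00319), and Plin3 was at -0.84 on the log2 scale. G0s2, an inhibitor of lipolysis, was called at -1.44 (edgeR adjusted p = 0.0496), but not without WT replicate 1 (-1.16, adjusted p = 0.364) or WT replicate 2 (-1.71, adjusted p = 0.106).

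**Figure D3:**
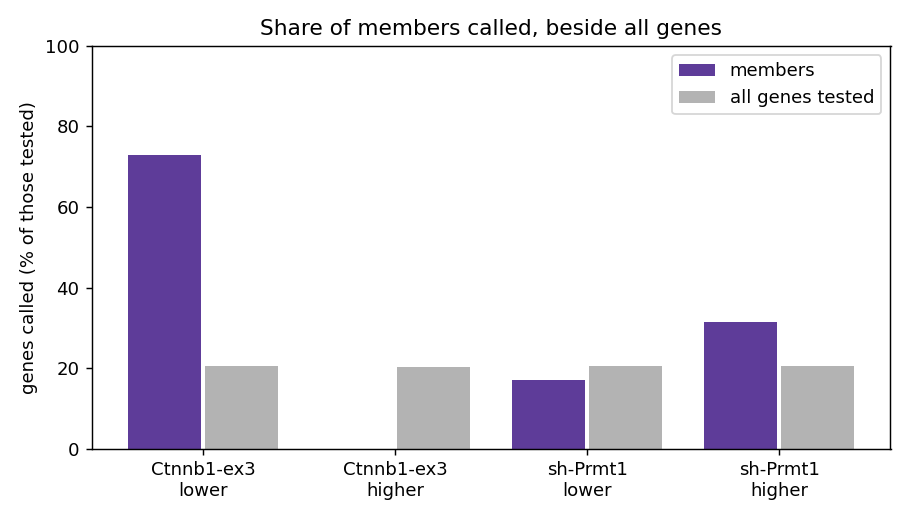
Share of genes called lower and higher in each experiment, for all genes tested and for the members. In the genotype experiment 73% of members were called lower against 20.5% of all genes, and in the knockdown experiment 31.4% were called higher and 17.1% lower against 20.5% and 20.4%.

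Because members moved together in the genotype experiment, their promoters were searched for the half-site of nuclear receptors, AGGTCA, on both strands of the 250 bases before the gene's start (RefSeq, GRCm38.p6). Of the 37 members 33 had an entry, and Crat, Acaa2, Decr1 and Angptl4 did not. The half-site was present in 5 of 33 members, 15.2%, against 15.8% of 27025 genes. AGGTCA repeated with 1 base between the copies, the form PPAR binds with its partner RXR, was in 0 members and in 0.0407% of genes. The looser form, AGGNCA repeated with 1 base between, includes every match of the stricter and was in 0 members and 0.4% of genes. These are matches of letters only. With so few of all genes matching, 0 of 33 cannot show that members have the repeat less often. Sequence beyond the 250 bases was not searched. Starts are those of RefSeq, and for Cpt1a the stretch lies inside the gene as GENCODE M21 places it, which starts further upstream. The stretches with a half-site are shown with it in capitals, read 5′ to 3′ on the strand of the gene, where TGACCT is the half-site on the opposite strand.
Cpt1a (chr19:3323195-3323224, plus strand): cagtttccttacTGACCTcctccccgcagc
Acadvl (chr11:70015498-70015527, minus strand): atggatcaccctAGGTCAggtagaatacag
Acadm (chr3:153944875-153944893, minus strand): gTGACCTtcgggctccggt
Echs1 (chr7:140116487-140116516, minus strand): accagcccgctcAGGTCAcgggtccacccc
Plin2 (chr4:86670260-86670289, minus strand): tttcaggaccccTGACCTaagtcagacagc
All of these 5 genes fell in Ctnnb1-ex3 organoids, but so did 27 of all 37 members, and Echs1 was not called without WT replicate 2 (-0.60). Whether half-site and fall go together was not tested.

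In the knockdown experiment the set did not move in a single direction. Of the 35 members tested, 11 rose in sh-Prmt1 libraries, 6 fell and 18 were not called, where 20.5% of all 18452 genes tested were called higher, 20.4% lower and 40.9% in either direction. The median log2 fold change of the members was 0.14, against 0.03 for all genes tested, and single members ran from -0.99 to 2.41. For 19 members both sh-Prmt1 libraries lay above both sh-scramble libraries, and for 12 both lay below, against 36.7% and 34.4% of all genes. The summed level of the set was 2657 and 2650 CPM in sh-scramble and 2918 and 2828 CPM in sh-Prmt1. ACADL was too low to be tested, with 8 and 13 counts in sh-scramble against 9 and 12 in sh-Prmt1. Summed enterocyte markers were level, at 645 and 666 CPM in sh-scramble against 645 and 657, and summed stem cell markers were 1126 and 1325 CPM against 802 and 781. SI, ANPEP and RBP2 were among 4 called higher of 8 tested enterocyte markers, each from a low level. Their mean levels were 0.14, 0.21 and 0.0 TPM in sh-scramble against 0.67, 0.62 and 1.3 in sh-Prmt1. The better expressed KRT20, FABP2 and VIL1, at 43.5, 53.9 and 38.3 TPM in sh-scramble, were not called. Of 8 tested stem cell markers LGR5, SMOC2, SLC12A2 and CDCA7 were called lower. SMOC2 was not called without sh-scramble replicate 2 (-1.82) or sh-Prmt1 replicate 1 (-1.31). The part of these markers in the result was not tested. With effective gene lengths in the model the members called lower went from 6 to 2, and with limma on log2(TPM + 1) also to 2. Of all genes tested 17.2% and 15.3% were called lower in these fits. ACSL4, ECI2, ACOX2 and ACOT1 lost their calls there, and CPT2 and ACADM did not.

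Levels follow in TPM, while fold changes are fitted on counts, so the ratios of TPM can differ from them. The largest rise among members was in ANGPTL4, the lipoprotein lipase inhibitor, at 0.432 and 0.345 TPM in sh-scramble against 3.09 and 4.47 in sh-Prmt1, from 9 and 15 counts in sh-scramble against 60 and 102 in sh-Prmt1. The sh-Prmt1 libraries were 5.30-fold higher on this low base (log2 fold change 2.41 ± 0.37, SE; adjusted p = 0.000716). In the authors' deposited table ANGPTL4 has a log2 fold change of 2.87 and is the 1 member marked there as differentially expressed. PDK4 was next, at 0.441 and 0.688 TPM in sh-scramble against 1.84 and 1.38 in sh-Prmt1 (log2 fold change 1.39 ± 0.23, SE; adjusted p = 0.00107). Both stood well apart between groups. PLIN2, the third of these PPAR-responsive genes, stood at 93.8 and 109.6 TPM in sh-scramble against 108 and 98.8 in sh-Prmt1 and was not called (log2 fold change -0.10 ± 0.09, SE; adjusted p = 0.429).

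**Figure D4:**
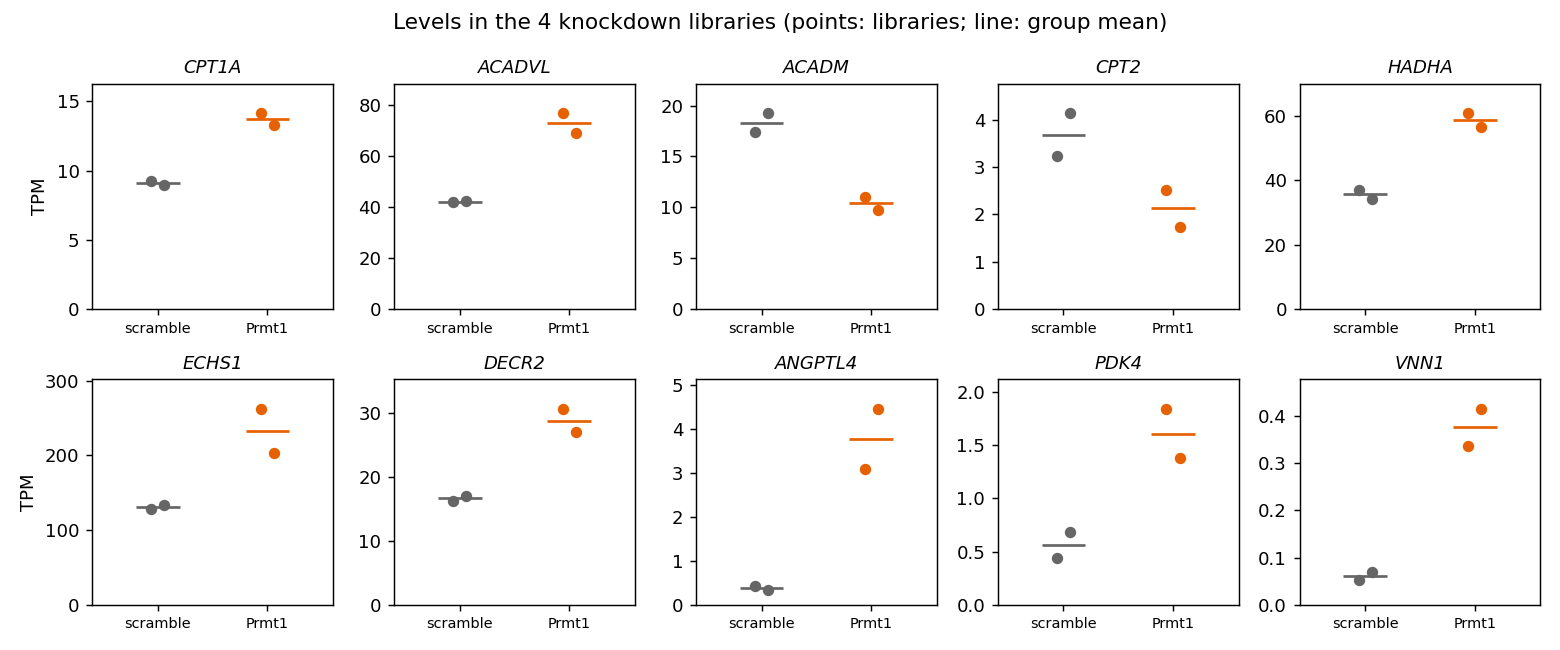
TPM on linear axes from 0 for 9 members and for VNN1 in the 2 sh-scramble and 2 sh-Prmt1 libraries, chosen after their values were seen; each point is 1 library and each line a group mean. The sh-Prmt1 points lie above the sh-scramble points in every panel but those of CPT2 and ACADM, where they lie below.

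Of 4 carnitine acyltransferases tested 1 rose and 1 fell, 25% each, which is near the 20.5% and 20.4% of all genes tested. CPT1A stood at 9.26 and 8.95 TPM in sh-scramble against 14.2 and 13.3 in sh-Prmt1 and rose (log2 fold change 0.38 ± 0.08, SE; adjusted p = 0.00488), while CPT2 stood at 3.23 and 4.14 TPM in sh-scramble against 2.52 and 1.74 in sh-Prmt1 and fell (log2 fold change -0.99 ± 0.18, SE; adjusted p = 0.00156). The enzymes on the outer and inner mitochondrial membranes thus went opposite ways. CROT was not called with all libraries, but was without sh-Prmt1 replicate 1 (0.39, edgeR adjusted p = 0.0339). CRAT was not called (edgeR adjusted p = 0.828), and its sign turned without sh-Prmt1 replicate 1, to 0.05.

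Of 3 dehydrogenases tested 2 rose and 1 fell, where 20.5% of all genes tested were called higher and 20.4% lower. ACADVL stood at 41.9 and 42.4 TPM in sh-scramble against 76.9 and 69.1 in sh-Prmt1 and rose 1.49-fold (log2 fold change 0.58 ± 0.09, SE; adjusted p = 0.000942). ACADS stood at 3.13 and 4.20 TPM in sh-scramble against 7.27 and 6.21 in sh-Prmt1 and rose (log2 fold change 0.62 ± 0.16, SE; adjusted p = 0.0107), but not without sh-scramble replicate 1 (0.43, edgeR adjusted p = 0.0808) or sh-Prmt1 replicate 1 (0.53, adjusted p = 0.0591). The medium-chain enzyme ACADM stood at 17.4 and 19.3 TPM in sh-scramble against 11.0 and 9.73 in sh-Prmt1 and was 1.99-fold lower (log2 fold change -0.99 ± 0.09, SE; adjusted p = 3.13e-05). ETFB stood at 113 and 104 TPM in sh-scramble against 191 and 159.5 in sh-Prmt1 and rose (log2 fold change 0.42 ± 0.11, SE; adjusted p = 0.0104), but not without sh-scramble replicate 2 (0.29, edgeR adjusted p = 0.0665) or sh-Prmt1 replicate 1 (0.31, adjusted p = 0.0854). ETFA and ETFDH were not called, at edgeR adjusted p of 0.269 and 0.0639.

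In the rest of the mitochondrial spiral 2 of 5 members tested were called higher and 0 lower, beside 20.5% and 20.4% of all genes tested. ECHS1 stood at 129 and 134 TPM in sh-scramble against 262 and 204 in sh-Prmt1 (log2 fold change 0.59 ± 0.11, SE; adjusted p = 0.00167). HADHA stood at 37.1 and 34.3 TPM in sh-scramble against 60.9 and 56.5 in sh-Prmt1 (log2 fold change 0.50 ± 0.09, SE; adjusted p = 0.00205). Its partner HADHB was at -0.19 on the log2 scale (edgeR adjusted p = 0.16), and was called lower without sh-scramble replicate 1 (-0.33, adjusted p = 0.0268). HADH and ACAA2 were not called. The sign of HADH and HADHB turned in the fits on TPM. Among the enzymes for unsaturated chains DECR2 stood at 16.3 and 17.0 TPM in sh-scramble against 30.6 and 26.9 in sh-Prmt1 and rose (log2 fold change 0.55 ± 0.10, SE; adjusted p = 0.00164). ECI2 was at -0.38 on the log2 scale (edgeR adjusted p = 0.0417), and was not called without sh-scramble replicate 1 (-0.43, adjusted p = 0.0537), sh-scramble replicate 2 (-0.39, adjusted p = 0.0883) or sh-Prmt1 replicate 1 (-0.28, adjusted p = 0.187). ECH1 was called only without sh-scramble replicate 1 (0.31, edgeR adjusted p = 0.0431). ECI1 and DECR1 were not called.

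Peroxisomal members gave 1 fall among 4 tested, 25%, which is near the 20.4% of all genes called lower. ACOX2 stood at 9.91 and 10.6 TPM in sh-scramble against 9.01 and 8.80 in sh-Prmt1 and was called lower on counts (log2 fold change -0.63 ± 0.12, SE; adjusted p = 0.0024). EHHADH stood at 1.53 and 1.57 TPM in sh-scramble against 1.61 and 1.57 in sh-Prmt1 (edgeR adjusted p = 0.512) and ACAA1 at 53.5 and 56.0 TPM in sh-scramble against 57.6 and 52.0 in sh-Prmt1 (adjusted p = 0.0566). ACOX3 was not called. The thioesterases gave ACOT2 at 10.5 and 11.7 TPM in sh-scramble against 19.5 and 17.8 in sh-Prmt1, which rose (log2 fold change 0.50 ± 0.09, SE; adjusted p = 0.00168), and ACOT1 at 2.05 and 1.89 TPM in sh-scramble against 0.878 and 1.48 in sh-Prmt1, which fell on counts (log2 fold change -0.93 ± 0.27, SE; adjusted p = 0.0208) but not without sh-Prmt1 replicate 1 (-0.61, edgeR adjusted p = 0.0833). The mouse copies of these genes share sequence, and reads of the human pair may be divided in the same way. ACOT8 was not called. BDH1 stood at 15.3 and 13.9 TPM in sh-scramble against 21.9 and 19.2 in sh-Prmt1 and rose (log2 fold change 0.28 ± 0.09, SE; adjusted p = 0.0323), and lost its call without any 1 of the 4 libraries: 0.28 without sh-scramble replicate 1, 0.21 without sh-scramble replicate 2, 0.24 without sh-Prmt1 replicate 1 and 0.29 without sh-Prmt1 replicate 2, with edgeR adjusted p of 0.0922, 0.241, 0.146 and 0.0737. Of the synthetases ACSL4 was at -0.38 on the log2 scale (edgeR adjusted p = 0.0294), not called without sh-Prmt1 replicate 1 (-0.23, adjusted p = 0.163), and ACSL1, ACSL3 and ACSL5 were not called. The 18 members not called lay between -0.23 for ACOT8 and 0.35 for ACOX3 on the log2 scale.

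The further lists are short, and 20.5% of all genes tested were called higher and 20.4% lower, so their counts alone show little. The carnitine list gave 2 rises of 5, SLC25A20 at 0.64 and MLYCD, which removes malonyl-CoA, at 0.52. Further mitochondrial genes gave 6 rises and 4 falls of 11, led by ACAD11 at -1.07, PCCB at -0.71 and IVD at 0.69. Further peroxisomal genes gave 1 rise and 2 falls of 8, SCP2 at -1.09, AMACR at 0.86 and HSD17B4 at -0.53. The synthetase, thioesterase and kinase list gave 2 rises and 3 falls of 9, led by ACSL6 at -1.45, PDK3 at -0.72 and ACOT7 at 0.65.

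Regulators gave 1 rise and 1 fall among 7 tested, 14.3% each, which is below the shares over all genes. PPARA stood at 2.80 and 3.21 TPM in sh-scramble against 4.28 and 3.60 in sh-Prmt1 and was not called (log2 fold change -0.23 ± 0.09, SE; adjusted p = 0.0555), with a sign that turned in the fits on TPM. HNF4A stood at 124 and 155 CPM in sh-scramble against 161 and 118 in sh-Prmt1, with overlapping groups (edgeR adjusted p = 0.984). Its log2 fold change was 0.15 without sh-scramble replicate 2 and 0.18 without sh-Prmt1 replicate 2. PPARGC1B, a coactivator, rose by 0.60 and PPARG was at -0.49 on the log2 scale. Of 5 tested PPAR-responsive genes VNN1 rose from a low level, at 0.0529 and 0.0688 TPM in sh-scramble against 0.336 and 0.415 in sh-Prmt1 (16 and 23 counts in sh-scramble against 101 and 178 in sh-Prmt1), and FABP1 was called lower at -0.46, but was at -0.07 and not called under the abundance-dependent offset. Lipid droplet and lipolysis genes gave 3 rises of 6. MGLL rose by 0.55. PNPLA2, the first lipase of triglyceride breakdown, was called at 0.73, but not without sh-scramble replicate 2 (0.66, edgeR adjusted p = 0.0532) or sh-Prmt1 replicate 2 (0.67, adjusted p = 0.059). PLIN3 was called at 0.38, but not without sh-scramble replicate 1 (0.30, adjusted p = 0.121) or sh-Prmt1 replicate 1 (0.35, adjusted p = 0.0582).

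Set side by side over 36 genes, 7 were called lower in Ctnnb1-ex3 and higher in sh-Prmt1: Cpt1a, Acadvl, Hadha, Echs1, Decr2, Acot2 and Angptl4. Cpt2, Acadm and Eci2, 3 in number, were called lower in both. Of those lower in Ctnnb1-ex3, 15 were not called in the knockdown and Acadl was not tested there. Acads, Etfb, Bdh1 and Pdk4 were called only in the knockdown and higher, Acsl4, Acox2 and Acot1 only there and lower, and Acsl1, Acsl3 and Acox3 in neither. The leave-one-out exceptions given above for Hadha, Hadhb, Echs1, Ech1, Eci1, Eci2, Crot, Angptl4, Pdk4, Acads, Etfb, Bdh1, Acsl4 and Acot1 apply to these counts. The experiments come from different tables and species' annotations, and the difference between them was not tested. Called lower in Ctnnb1-ex3 were 27 of 37 members, and in sh-Prmt1 11 of 35 tested were called higher and 6 lower. Some joint calls would arise from these numbers without any link, and joint calls were not counted over all genes. At an adjusted p under 0.05 in the authors' deposited tables, 26 of 37 members were lower and 0 higher in Ctnnb1-ex3, where 10.3% of the 21757 genes with an adjusted p were lower and 8.38% higher. Those 21757 genes include low ones that were not among the 12976 tested here, of which 20.5% were lower. The shares are thus over unlike sets of genes. In the authors' deposited table of the knockdown, 11 of 35 members with an adjusted p were higher and 3 lower in sh-Prmt1, where 17.9% of 13991 genes were higher and 24.4% lower.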

How the data were processed

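For the genotype experiment the authors deposited whole-number counts per mouse gene symbol. The lowest count is 1 and 861 genes stand at 1 in all libraries, so 1 was probably added, which no source states; counts were used as deposited. For the knockdown experiment the deposited files hold, per the file headers, Salmon results per gene: estimated counts (rounded here for the count tests), TPM and effective lengths. The authors also deposited tables of log2 fold changes, p-values and adjusted p-values. Mouse positions are from GENCODE M21 (mm10). The submitters' processing notes name Salmon, DESeq2 and mm10; versions, the aligner and the human annotation: not given in the sources used here.

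The experiments were fitted separately with edgeR 4.0.16 (R 4.3.3): TMM, filterByExpr, the two-sided quasi-likelihood test and Benjamini-Hochberg adjustment. SE is the log2 fold change divided by the square root of F. The biological coefficient of variation was 0.171 and 0.105. A count of 0 allows up to 3 counts, 0.451 to 1.14 CPM in the genotype and 0.0528 to 0.0809 CPM in the knockdown libraries, for counting error only. DESeq2 1.42.0, limma 3.58.1, other scalings, no filter, a replicate block and each library left out in turn were alternatives; leaving out a library assumes that the lone one varies like the other group. All members are named, with up to 3 genes per further list by size of change among those called, and Ppara, Hnf4a, Prmt1 and Ctnnb1 always; Aacs, Slc22a5 and other called genes are counted only, and some genes of the further lists are not reported here. Ctnnb1 stood at 340 and 423 CPM in WT and 217 and 289 in Ctnnb1-ex3 (edgeR adjusted p = 0.0504; 0.0129 when Ctnnb1-ex3 replicate 2 was left out), and CTNNB1 was lower in sh-Prmt1 (log2 fold change -0.72, adjusted p = 0.00549). Members and lists were chosen with earlier results of these data known.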

Additional observations from a re-analysis of the deposited data

How the results depend on the processing

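Of the members called, 22 of 27 in the genotype and 10 of 17 in the knockdown experiment were called under every alternative run. Genotype members lower numbered 24 to 29 in the alternatives with all libraries, where 11.3% to 27% of all genes tested were called lower. Members higher, 0 in the edgeR fit above, numbered 1 under upper-quartile factors, the read-density offset or the replicate block. Called higher there were 28.7%, 19% and 23% of all genes tested. The genotype member median of -0.98 became -0.74 under upper-quartile factors, which moved the median of all genes to 0.26. It became -0.83 under the abundance offset, -0.79 under the read-density offset (chosen after seeing the data) and -1.15 to -0.98 without 1 library. Knockdown members lower numbered 2 with the effective-length offset and in both TPM fits, and 3 to 6 without 1 library; members higher numbered 9 to 16. The knockdown member median of 0.14 became 0.075 with DESeq2 and 0.10 with no filter, below the medians of all genes there, 0.30 and 0.31. It was 0.24 under the abundance offset, against 0.00016 for all genes. On log2(TPM + 1) and log2(TPM + 0.1) it was 0.24 and 0.32, against 0.12 and 0.14 for all genes. Without 1 library it was 0.048 to 0.10, against 0.013 to 0.044 for all genes. The causes were not tested.

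Whether replicate numbers pair the libraries could not be settled. Deviations of same-numbered libraries correlated weakly, at 0.0882 in the genotype and -0.0923 in the knockdown experiment, which cannot show that pairing was absent. With the replicate block, genotype members called were 29 lower and 1 higher (median -0.97), against 27% and 23% of all genes tested. Knockdown members called were 5 lower and 11 higher (median 0.14), against 19.4% and 19.1%.

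Signs turned for genes not called. Upper-quartile factors gave Acsl1 0.055, Acsl4 0.14, Acox3 0.078, Acot1 0.016 and HNF4A 0.011. The abundance offset gave Acsl1 0.048, Bdh1 0.091, Pdk4 -0.17, HADH 0.069, PLIN2 0.10 and HNF4A 0.15. The read-density offset gave Etfb 0.012, Bdh1 0.048 and Pdk4 -0.16. limma-voom gave Pdk4 -0.0323, and DESeq2 gave ACSL3 -0.0034. The effective-length offset gave CRAT 0.036, ECI1 0.0099, PPARA 0.23 and HNF4A 0.031. log2(TPM + 1) and log2(TPM + 0.1) gave CRAT 0.13 and 0.19, HADHB 0.015 and 0.016, HADH 0.049 and 0.051, ECI1 0.17 in both, DECR1 0.0045 in both, EHHADH 0.020 and 0.031, ACAA1 0.00029 and 0.00027, PLIN2 0.025 in both, PPARA 0.30 and 0.38, and HNF4A 0.18 and 0.19. Without 1 library, Acsl3 ran from -0.077 to 0.12, Pdk4 from -2.17 to 1.44, CRAT from -0.23 to 0.046, ECI1 from -0.26 to 0.00879 and HNF4A from -0.25 to 0.18.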
